A study of Mus musculus with 4 samples.

Results

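The 47 genes described here encode the subunits of the mouse proteasome and its activators and assembly factors. They are the rows of the deposited heart RNA table whose symbol is Psma, Psmb, Psmc, Psmd, Psme, Psmf or Psmg followed by a number and whose estimated counts sum to at least 48 over the 4 libraries. Of 55401 genes in the table, 48 matched by symbol and 47 reached that sum. The gene left out, Psmb11, encodes a catalytic subunit known from the thymus and was listed at 0 counts in all 4 libraries. All 47 passed the filter on low counts and were tested among 18475 genes, and no measured value other than this minimum chose them.

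The MI group (n = 2 libraries) comprised hearts with a ligation operation that causes myocardial infarction, in which heart muscle dies for want of blood. The Sham group (n = 2 libraries) comprised hearts after thoracotomy, the opening of the chest, without ligation. Both groups are labelled as heart tissue at day 28. The labels give no strain, age or sex, do not name the region of each sample, and do not say whether each library came from its own animal. The p-values thus reflect only how these libraries vary, and that variation may be technical. The design text speaks of infarcted tissue and of normal left ventricle. The study's title names cyanidin, a plant pigment, but hearts given cyanidin were not analysed here. The comparison asks how the transcript levels of the proteasome differ between infarcted and Sham hearts.

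The proteasome degrades proteins that carry ubiquitin chains. Its core particle is a barrel of alpha and beta rings in which the beta subunits Psmb5, Psmb6 and Psmb7 carry the catalytic sites. A regulatory particle of ATPases and non-ATPase subunits recognises, unfolds and feeds in the substrate. In immune cells and under interferon, Psmb8, Psmb9 and Psmb10 take the places of Psmb5, Psmb6 and Psmb7 in newly assembled cores, which are then called immunoproteasomes and shape peptides for antigen presentation. In heart muscle the proteasome takes part in the turnover of sarcomere and other proteins.

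Total estimated counts were 72857907 and 75979320 in MI 1 and MI 2, against 72485370 and 66624106 in Sham 1 and Sham 2. Of the estimated counts from 1 to 20, 41.7% to 42.9% in each library were multiples of 4, where an even spread gives 25%. Mitochondrially encoded transcripts took 27.3% and 30.9% of the counts in the MI libraries, against 34% and 32.6% in the Sham libraries. Both groups expressed the cardiomyocyte markers at a high level, summing to 43000 and 48100 CPM (counts relative to library size, scaled between libraries by the trimmed mean of M values, TMM) in MI and 57500 and 54200 CPM in Sham. MI 1 held lung epithelial transcripts, 277 CPM over 10 markers, against 1.17 CPM in MI 2 and 0.991 and 3.24 CPM in the Sham libraries. Sham 2 held atrial transcripts. The 7 atrial markers summed to 372 and 366 CPM in MI 1 and MI 2, and to 327 and 3230 CPM in Sham 1 and Sham 2. Outside Sham 2 most of the sum was Pam, at 349.1, 341.9 and 304.4 CPM in MI 1, MI 2 and Sham 1. Myl7 had 0.683 and 0.271 CPM in MI, and 0.346 and 743.1 CPM in Sham 1 and Sham 2. Nr2f2 was not raised in Sham 2, with 11.2 and 13.4 CPM in MI and 6.28 and 6.66 CPM in Sham.

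Because the constitutive and the immunoproteasome catalytic subunits are set against each other, the promoters of a pair of each are shown first. They run from 250 bases before to 50 after the RefSeq transcription start (GRCm38.p6). Capitals mark the motif matches found in them. The Psmb5 window lies at chr14:54617946-54618245 on the minus strand and Psmb6 at chr11:70525107-70525406 on the plus strand, and each holds TGACNNNGC, the core of the antioxidant response element. The Psmb8 window lies at chr17:34197945-34198244 on the plus strand and holds TTCNNNGAA, the letters of a gamma-activated sequence. The Psmb9 window lies at chr17:34187281-34187580 on the minus strand and holds CCAAT, read on its other strand.
Psmb5: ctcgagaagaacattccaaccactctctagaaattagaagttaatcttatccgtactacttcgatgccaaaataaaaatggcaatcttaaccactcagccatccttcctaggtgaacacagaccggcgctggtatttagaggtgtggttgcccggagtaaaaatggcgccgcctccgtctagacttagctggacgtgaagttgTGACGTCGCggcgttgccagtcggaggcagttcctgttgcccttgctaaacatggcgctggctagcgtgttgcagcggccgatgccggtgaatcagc
Psmb6: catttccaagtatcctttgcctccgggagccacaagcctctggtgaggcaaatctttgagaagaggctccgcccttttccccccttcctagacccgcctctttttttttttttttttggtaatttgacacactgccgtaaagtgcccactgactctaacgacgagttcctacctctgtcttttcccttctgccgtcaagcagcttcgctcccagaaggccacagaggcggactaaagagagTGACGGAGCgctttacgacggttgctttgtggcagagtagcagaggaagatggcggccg
Psmb8: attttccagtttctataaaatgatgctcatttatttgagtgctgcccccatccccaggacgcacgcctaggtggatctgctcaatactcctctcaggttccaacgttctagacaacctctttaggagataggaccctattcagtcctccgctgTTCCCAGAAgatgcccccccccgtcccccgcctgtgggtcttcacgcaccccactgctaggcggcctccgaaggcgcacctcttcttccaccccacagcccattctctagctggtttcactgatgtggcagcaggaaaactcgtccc
Psmb9: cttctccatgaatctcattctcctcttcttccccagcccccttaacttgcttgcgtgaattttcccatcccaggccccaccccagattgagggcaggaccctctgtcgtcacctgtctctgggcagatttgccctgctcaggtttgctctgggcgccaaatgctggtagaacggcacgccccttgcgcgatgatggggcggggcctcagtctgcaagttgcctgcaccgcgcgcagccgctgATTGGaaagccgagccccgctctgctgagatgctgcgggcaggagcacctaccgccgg

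Of the 47 members, 39 had a promoter in the RefSeq table, and both strands of each were searched. Where a gene had several promoter windows, as Psma6 did, a match in any of them counted. The antioxidant core TGACNNNGC was in 6 of these 39 (15.4%), namely Psmb5, Psmb6, Psmc6, Psmd9, Psmd12 and Psme4. The share was 14% of all 27025 genes with promoter windows of the same length. These letters can overlap other elements that contain TGAC. CCAAT was in 13 of the 39 (33.3%), against 41.1% of all these genes. The core of the interferon-stimulated response element was in 5 (12.8%), namely Psmb3, Psmd4, Psmd9, Psme1 and Psmg4, against 3.99% of all. TTCNNNGAA was in 3 (7.69%), namely Psmb8, Psmd2 and Psmg1, against 9.55% of all. The Psmb10 window held none of these motifs, and Psmb7 had no promoter entry. A match describes the letters only.

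With TMM scaling, most proteasome transcripts were slightly lower in MI, and no member passed the test. The median log2 difference (MI minus Sham) of the 47 members was -0.18, or -12%, with quartiles of -0.26 and -0.12. Over all 18475 genes tested the median was 0.00, with quartiles of -0.28 and 0.36. The difference was below 0 for 43 of 47 members (91.5%), against 49.8% of all genes. The exceptions were Psmb8, Psmb9, Psmb10 and Psmf1. The standard error of a member's log2 difference ranged from 0.11 to 0.62 with a median of 0.13, so a typical member differed by little more than its own error.

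In edgeR's quasi-likelihood test, 0 members and 0% of all genes had an adjusted p under 0.05. The smallest adjusted p of a member was 0.329, and that of any gene was 0.185. At an unadjusted p under 0.05, 0 members were higher in MI, where the share of all genes was 7.12%. Lower in MI at that threshold were 3 members (6.38%), Psme2, Psmd5 and Psmb2, against 4.51% of all genes. That count was 0 with total counts only, in limma on FPKM and without either MI library. DESeq2 called 0 members higher and 0 lower at an adjusted p under 0.05, where it called 2.18% of all genes higher and 1.26% lower.

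On the CPM scale the groups stood apart, with the MI values lower, for 31 of 47 members (66%), against 21.9% of all genes. They stood apart with the MI values higher for 1 member, Psmb10 (2.13%), against 24.9% of all genes. On the deposited FPKM scale, which has no TMM factor, the counts turned round. There the MI values were apart and lower for 5 members (10.6%; all genes 8.89%), namely Psma6, Psmd12, Psme1, Psme2 and Psmg1, and apart and higher for 12 members (25.5%; all genes 39.0%).

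The sign of the member median therefore depended on the scaling. Under each scaling run it lay below the median of all genes, by 0.19 with each scaling of the counts and by less in the FPKM fits. The TMM factors were 1.15 and 1.02 in MI 1 and MI 2, against 0.877 and 0.975 in Sham 1 and Sham 2. With total counts only, the member median was 0.04 and the all-gene median 0.23, and 15 of 47 members were below 0. With mitochondrial genes removed the medians were -0.04 for members and 0.14 for all genes. In limma on log2(FPKM + 0.1) they were 0.04 and 0.20, and on log2(FPKM + 1) they were 0.03 and 0.10. With TMM factors, with total counts and without mitochondrial genes, the member median lay 0.19 below that of all genes. Under each of these scalings 43 of 47 members were below the all-gene median. These scalings differ by 1 factor per library, which shifts all genes nearly alike. Their agreement was therefore fixed in advance and is no separate support. Under the FPKM fits the number of members below the all-gene median was 42 with the smaller pseudocount and 35 with the larger.

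**Figure D1:**
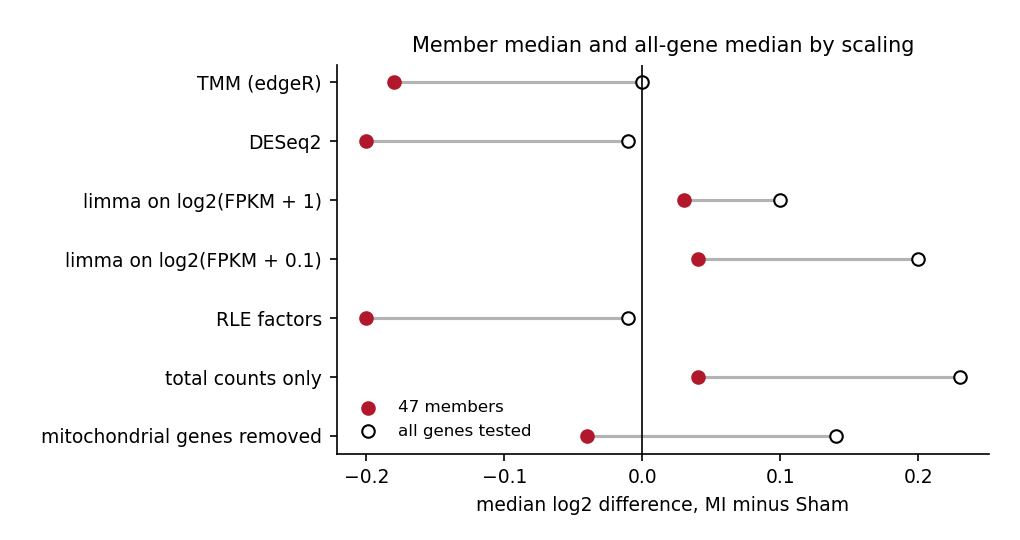
Median log2 difference (MI minus Sham, horizontal axis) of the 47 members (filled points) and of all genes tested (open points) under 7 scalings (rows). The members' point lies left of the all-gene point in every row, by 0.06 to 0.19, while the position relative to 0 differs between rows.

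The libraries of a group also differed from each other. The members' median absolute log2 ratio was 0.10 within MI, 0.16 within Sham and 0.18 between the groups. With TMM scaling, Sham 1 had the highest CPM for 34 of 47 members (72.3%), against 27.5% of all genes. MI 1 had the lowest for 30 (63.8%), against 25.9% of all genes. On the FPKM scale, which has no TMM factor, the members summed to 1002 and 940.1 in MI 1 and MI 2. Their FPKM sums were 947.6 and 960.8 in Sham 1 and Sham 2. MI 1 was thus highest there, so the order of the libraries depended on the scaling. In CPM within Sham, the median log2 ratio of Sham 1 over Sham 2 was 0.10, and 34 members were higher in Sham 1. Within MI, the median of MI 1 over MI 2 was -0.07, and 12 members were higher in MI 1. Without Sham 1 the member median was -0.14, the all-gene median 0.03, and 40 of 47 members were below 0. Without MI 1 these were -0.14, 0.00 and 38. The members varied less than other genes: the median absolute log2 ratio between the Sham libraries was 0.16 for members and 0.33 for all genes, and between the MI libraries 0.10 and 0.24.

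Several single members changed sign with 1 library left out, and none of them had passed the test. Without Sham 1 the log2 difference was 0.11 for Psmb5, 0.02 for Psmc4, 0.04 for Psmd6, 0.12 for Psmd11, 0.10 for Psmd10 and -0.01 for Psmf1. Without MI 1 it was 0.06 for Psma7, 0.01 for Psmb5, 0.02 for Psmd6 and 0.14 for Psmd10. Psmb8 and Psmb9 also changed sign without Sham 1 and are described with their values. Among members that kept their sign without Sham 1, the difference was -0.12 for Psme4, -0.18 for Psmg1, -0.10 for Psmb7, -0.08 for Psmc2, -0.07 for Psmb4 and -0.04 for Psmd7. Psma6, Psmb2, Psmd5, Psmd12, Psme1 and Psme2 stayed between -0.64 and -0.23 with any 1 library left out.

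**Figure D2:**
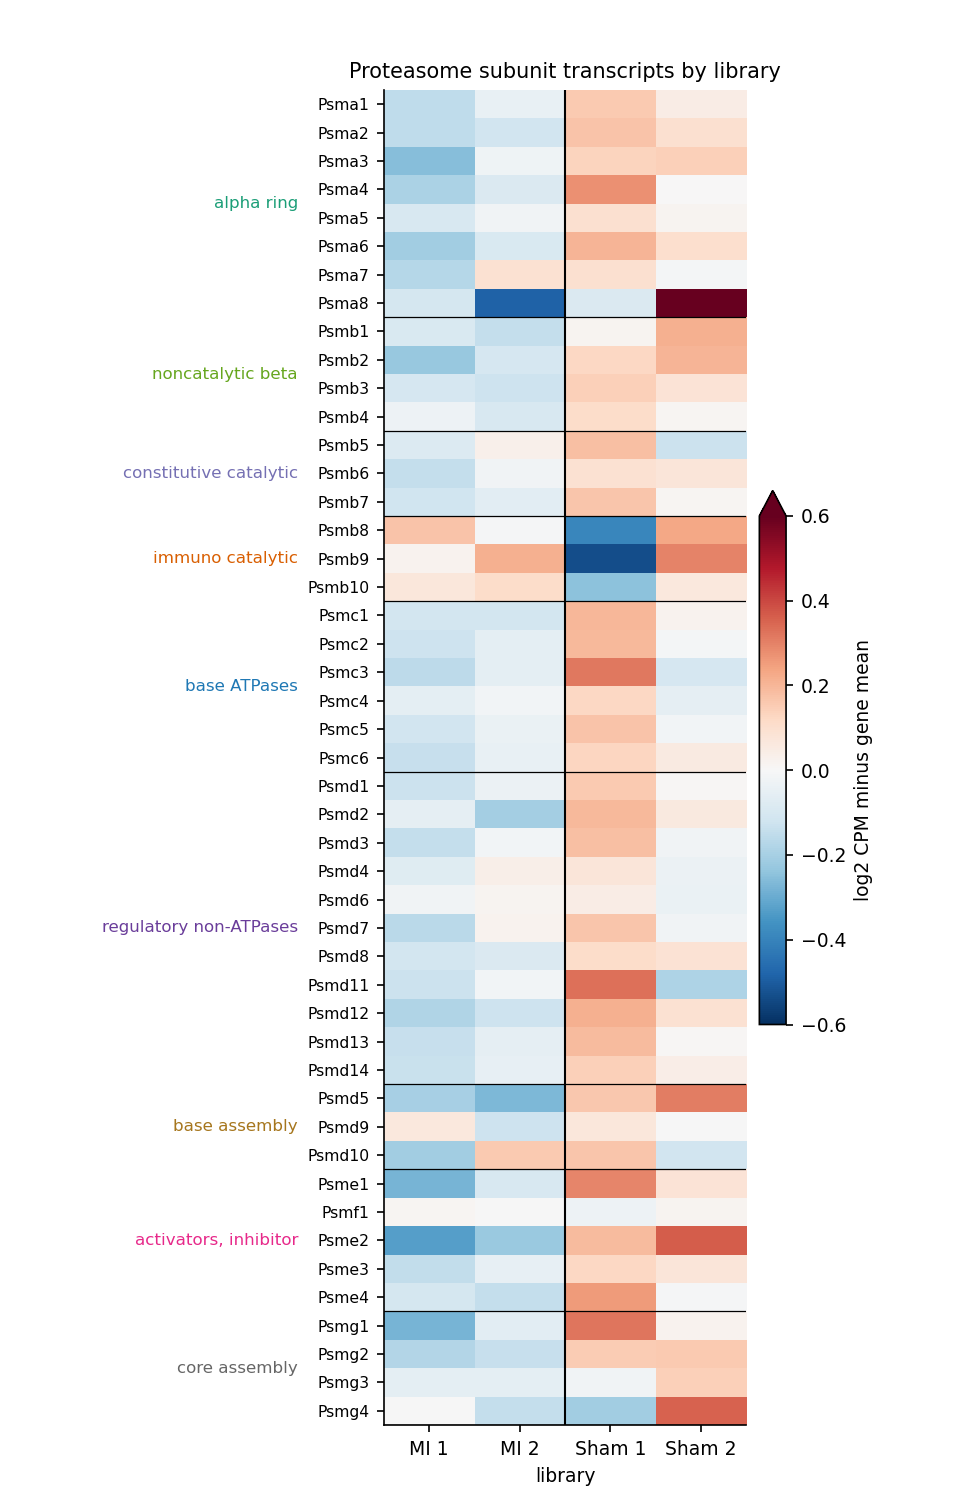
Log2 CPM of each member (rows, grouped by role) in each library (columns) minus the member's mean over the 4 libraries; red is above the mean and blue below, and the colour scale ends at 0.6. Sham 1 is the highest column for 34 of 47 members and the lowest for 5, among them Psmb8, Psmb9 and Psmb10.

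Fibroblast markers were higher in MI, and the cardiomyocyte markers were mixed. Of 8 cardiomyocyte markers 1 was lower and 0 were higher at an unadjusted p under 0.05. With TMM scaling 7 of the 8 had a log2 difference below 0, with a median of -0.24. Myh6, Tnnt2 and Tnni3 were lower in both MI libraries in CPM and in FPKM. Tnni3, for example, had 1090 and 1280 FPKM in MI, against 1610 and 1460 FPKM in Sham. On the FPKM scale the groups of 4 of the 8 overlapped, Actc1, Myl2, Myl3 and Pln. Ryr2 was higher in both MI libraries in FPKM, at 23.5 and 23.6, against 22.4 and 17.2 in Sham. The 6 fibroblast markers summed to 3560 and 2140 CPM in MI, against 701 and 906 CPM in Sham, with 5 of 6 higher at an unadjusted p under 0.05. The 5 endothelial markers summed to 1560 and 1520 CPM in MI, against 1330 and 1300 CPM in Sham. The part of cell makeup in the members' differences was not tested, and fewer cells of a type cannot be told apart from less RNA per cell in bulk tissue.

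The alpha ring gates the core and holds its outer faces. All 8 alpha genes had a log2 difference below 0, with a median of -0.27, and for 7 of them the MI values lay wholly below the Sham values in CPM (all genes 21.9%). In FPKM this held for 1 of the 8 (all genes 8.89%), and the reverse for 2 (all genes 39.0%). Psma6, the alpha subunit with the highest FPKM, had 77.9 and 84.6 CPM in MI, against 103.8 and 96.5 CPM in Sham. Its log2 difference was -0.30 ± 0.13 (SE; unadjusted p = 0.0626). Psma7 had 51.4 and 61.7 CPM in MI and 61.9 and 57.4 CPM in Sham, groups that overlap. Psma8, the alpha subunit of the testis form of the proteasome, had 0.42 and 0.322 CPM in MI and 0.425 and 0.724 CPM in Sham. That level is close to the floor of the assay, and its log2 difference was -0.63 ± 0.62 (SE).

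Psma3, the alpha gene with the lowest FPKM apart from Psma8, shares its sequence with a processed pseudogene, Gm13835 on chromosome 6, at 100% identity over 665 bases. Gm13835 had 44.8% and 54% as many counts as Psma3 in the MI libraries, and 54.2% and 43.8% in the Sham libraries. Reads of such a pair can be assigned to either gene. In all, 9 members had a copy elsewhere at 95% identity or more over at least 200 bases, 13 shared exon positions with another gene, and 19 had either. Summed with Gm13835, Psma3 had 47.4 and 59.1 CPM in MI and 66 and 62 CPM in Sham. The log2 difference of the mean log2 values was -0.27 for the sum and -0.28 for Psma3 alone.

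The beta subunits without a catalytic site lie in the inner rings. All 4 had a negative log2 difference, with a median of -0.23. In all 4 the MI values lay wholly below the Sham values in CPM (all genes 21.9%), but in 0 of the 4 in FPKM (all genes 8.89%). Psmb2 (ENSMUSG00000028837, chromosome 4, 126677630 to 126709714, GRCm38) had 42.4 and 46.3 CPM in MI, against 54.3 and 57.3 CPM in Sham. Its log2 difference was -0.33 ± 0.12 (SE; unadjusted p = 0.0466, adjusted p = 0.424). On the FPKM scale its groups came close, at 36.9 and 35.9 in MI and 36.4 and 42.6 in Sham, and overlapped. Psmb4, at the other end of these 4, had 77.4 and 74.0 CPM in MI and 85.4 and 79.7 CPM in Sham (log2 difference -0.12). Psmb1, the least abundant of the 4 by FPKM, had 68.6 and 66.2 CPM in MI and 74.0 and 84.8 CPM in Sham.

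The constitutive catalytic subunits had small differences whose sign depended on the scaling. Psmb5 (ENSMUSG00000022193, chromosome 14, 54614119 to 54618022), which carries the chymotrypsin-like site, had 46.0 and 49.7 CPM in MI and 55.1 and 44.5 CPM in Sham. Psmb6 (ENSMUSG00000018286, chromosome 11, 70525367 to 70527858), with the caspase-like site, had 71.1 and 77.4 CPM in MI and 83.5 and 82.6 CPM in Sham. Psmb7 (ENSMUSG00000026750, chromosome 2, 38588036 to 38644087), with the trypsin-like site, had 102.1 and 106.2 CPM in MI and 124.5 and 111.7 CPM in Sham. In CPM the Psmb5 groups overlapped, and those of Psmb6 and Psmb7 did not. The log2 differences were -0.06 ± 0.16 for Psmb5, -0.16 ± 0.12 for Psmb6 and -0.18 ± 0.13 for Psmb7 (SE; unadjusted p = 0.728, 0.238 and 0.216). With total counts only these were 0.17, 0.06 and 0.05. Over all 14 constitutive core genes, Psma1 to Psma7 and Psmb1 to Psmb7, the log2 difference with TMM ranged from -0.33 to -0.06 with a median of -0.21.

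The immunoproteasome catalytic subunits had log2 differences above 0, and none passed the test. With TMM the 14 constitutive core genes were below 0, whereas with total counts only some of them were above 0 as well, for example Psmb5, Psmb6, Psmb7, Psma7 and Psmb4, at 0.05 to 0.17. Psmb8 (ENSMUSG00000024338, chromosome 17, 34197721 to 34201454), which replaces Psmb5, had 9.54 and 8.42 CPM in MI and 6.45 and 9.94 CPM in Sham. Psmb9 (ENSMUSG00000096727, chromosome 17, 34181987 to 34187764), which replaces Psmb6, had 4.06 and 4.63 CPM in MI and 2.77 and 4.91 CPM in Sham. Psmb10 (ENSMUSG00000031897, chromosome 8, 105935735 to 105938104), which replaces Psmb7, had 23.1 and 23.8 CPM in MI and 18.6 and 23.0 CPM in Sham. In each case Sham 1 was the lowest of the 4 libraries, and Sham 2 was the highest for Psmb8 and Psmb9. The log2 differences were 0.13 ± 0.27, 0.18 ± 0.35 and 0.17 ± 0.16 (SE; unadjusted p = 0.643, 0.635 and 0.342). With total counts only they were 0.35, 0.38 and 0.39, and in limma on log2(FPKM + 0.1) they were 0.37, 0.41 and 0.40. With TMM and without Sham 1 they were -0.14, -0.17 and 0.03, and without Sham 2 they were 0.48, 0.65 and 0.34, so their sign or size rested on which Sham library was used.

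**Figure D3:**
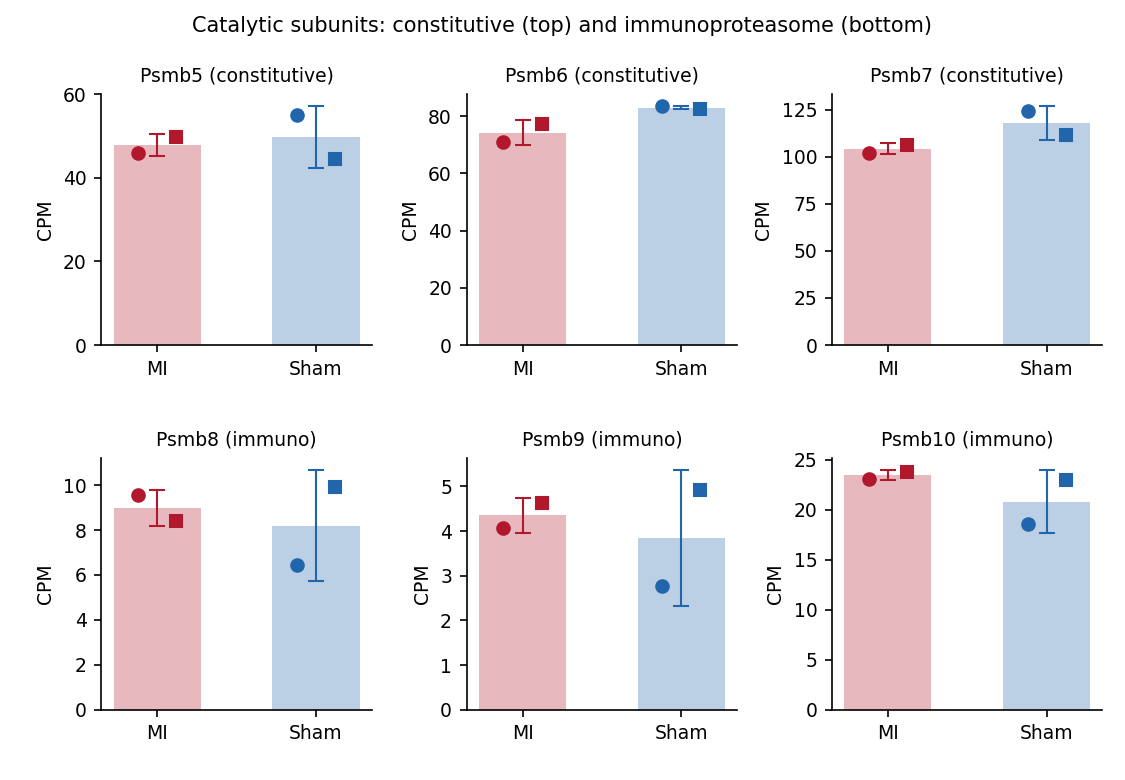
CPM (TMM-scaled, vertical axes from 0) of the 3 constitutive (top) and 3 immunoproteasome (bottom) catalytic subunits in MI and Sham hearts; bars are group means, error bars SD (n = 2), circles replicate 1 and squares replicate 2. Sham 1 is the highest of the 4 libraries for each constitutive subunit and the lowest for each immunoproteasome subunit.

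Per length, the immunoproteasome subunits were far below the constitutive ones in both groups. The summed FPKM of Psmb8, Psmb9 and Psmb10 was 18.27 and 16.52 in MI, against 10.89 and 15.88 in Sham. The summed FPKM of Psmb5, Psmb6 and Psmb7 was 124.6 and 119.3 in MI, against 114.7 and 113 in Sham. Immunoproteasome transcripts were thus 12.8% and 12.2% of the catalytic subunit FPKM in MI, and 8.67% and 12.3% in Sham. The log2 ratio of immunoproteasome to constitutive FPKM averaged -2.81 ± 0.06 in MI and -3.11 ± 0.40 in Sham (SD, n = 2 each). The difference of 0.30 was smaller than the SD of the Sham group, and the groups overlapped. It was 0.02 without Sham 1 and 0.59 without Sham 2. It is given as a description with no test; a 2-sided exact permutation test of 2 against 2 libraries could reach no p below 0.333.

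Taken pair by pair, Psmb10 over Psmb7 was 0.453 and 0.449 in MI, against 0.298 and 0.413 in Sham, in FPKM. Here the groups did not overlap, with a log2 difference of 0.36. Psmb8 over Psmb5 was 0.055 and 0.0449 in MI and 0.031 and 0.0591 in Sham, and Psmb9 over Psmb6 was 0.0292 and 0.0305 in MI and 0.017 and 0.0301 in Sham. Psmb8 over Psmb5 overlapped between the groups, as did Psmb9 over Psmb6, where 1 Sham library lay between the MI libraries. In every library the ratio of Psmb10 to Psmb7 was the highest of the 3. The size of these ratios depended on the gene length used. Per kilobase of the principal transcript, Psmb10 over Psmb7 was 0.2 and 0.198 in MI, against 0.132 and 0.182 in Sham. Psmb8 over Psmb5 was then 0.115 and 0.0936 in MI and 0.0647 and 0.123 in Sham.

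Sham 1 was also the lowest library for many genes that act with the immunoproteasome. It had the lowest CPM for 6 of 6 interferon regulators and for 5 of 7 antigen processing partners, against 27.7% of all genes. Tapbp, which loads peptides onto class I molecules, was instead highest in Sham 1, with 22.9 and 18.9 CPM in MI and 26.05 and 19.2 CPM in Sham. B2m, the light chain of class I molecules, had 231.2 and 213.3 CPM in MI and 150.7 and 260.6 CPM in Sham. Tap1, a subunit of the peptide transporter, had 11.04 and 7.64 CPM in MI and 4.28 and 9.24 CPM in Sham. Tap1 overlaps the Psmb9 exons on the opposite strand. Irf1, an interferon-induced transcription factor, was higher in both MI libraries, at 25.4 and 25.5 CPM, against 16.5 and 19.98 CPM in Sham. Its log2 difference was 0.48 ± 0.16 (SE; unadjusted p = 0.0301, adjusted p = 0.378), the only one of these 13 genes with an unadjusted p under 0.05.

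The 23 leukocyte markers summed to 626 and 433 CPM in MI, against 396 and 463 CPM in Sham, the lowest sum being that of Sham 1. Of the 22 tested, 0 had an unadjusted p under 0.05 in either direction, and the median log2 difference was 0.11. The markers did not all follow the sum. Cd74 was lowest in Sham 1, with 94.3 and 93.9 CPM in MI and 66.6 and 111.3 CPM in Sham. Ptprc was not, with 11.04 and 8.31 CPM in MI and 8.81 and 7.35 CPM in Sham. Nor was Cd68, with 13.4 and 7.42 CPM in MI and 10.6 and 8.24 CPM in Sham. S100a9, of neutrophils, had 6.01 and 3.21 CPM in MI and 24.5 and 4.14 CPM in Sham, highest in Sham 1. A low leukocyte content of Sham 1 can thus not be read from the sum. Ncr1, of natural killer cells, was at 0 in MI 2 and both Sham libraries. The part of leukocyte content, and of the lung transcripts in MI 1, in the immunoproteasome values was not tested.

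The base of the regulatory particle holds a ring of 6 ATPases that unfold the substrate. All 6 had a log2 difference below 0, with a median of -0.18, and for 4 the MI values lay wholly below the Sham values in CPM (all genes 21.9%). In FPKM this held for 0 of the 6 (all genes 8.89%), and Psmc4 had the reverse (all genes 39.0%). Psmc3, the most abundant by FPKM, had 129.4 and 138.5 CPM in MI and 180.1 and 134.7 CPM in Sham. Its log2 difference was -0.23 ± 0.18 (SE), and -0.01 without Sham 1. Psmc4 had 64.1 and 66 CPM in MI and 72.7 and 64.2 CPM in Sham (log2 difference -0.07). Psmc2, the least abundant by FPKM, had 69.2 and 72.2 CPM in MI and 86.2 and 74.6 CPM in Sham.

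The 11 non-ATPase subunits of the regulatory particle include ubiquitin receptors, scaffold subunits and the deubiquitinase Psmd14. All 11 were below 0, with a median of -0.17, and for 6 the MI values lay wholly below the Sham values in CPM (all genes 21.9%). In FPKM this held for 1, Psmd12 (all genes 8.89%), and the reverse for 5 (all genes 39.0%). Psmd12, a lid scaffold subunit, had 67.6 and 70.3 CPM in MI, against 88.8 and 81.5 CPM in Sham (log2 difference -0.30 ± 0.12 SE; unadjusted p = 0.0552). Psmd6, another lid subunit, had 40.7 and 41.6 CPM in MI and 42.5 and 40.1 CPM in Sham, a log2 difference of -0.01. Psmd11 had 48.6 and 52.6 CPM in MI and 66.9 and 46.7 CPM in Sham, so that the Sham libraries held both its highest and its lowest value. Its log2 difference of -0.17 ± 0.20 (SE) was 0.12 without Sham 1. Psmd7, the most abundant by FPKM, had 72.0 and 81.7 CPM in MI and 90.4 and 79.4 CPM in Sham.

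Psmd5, Psmd9 and Psmd10 are chaperones that assemble the base and leave it afterwards. Psmd5 (ENSMUSG00000026869, chromosome 2, 34849734 to 34874968) had 10.01 and 9.56 CPM in MI, against 12.9 and 14.2 CPM in Sham. Its log2 difference was -0.47 ± 0.16 (SE; unadjusted p = 0.0355, adjusted p = 0.398). The Psmd5 groups did not overlap in CPM but overlapped in FPKM, at 1.45 and 1.23 in MI and 1.43 and 1.76 in Sham. Psmd9 and Psmd10 overlapped between groups in CPM, with log2 differences of -0.06 and -0.05. In FPKM Psmd9 overlapped as well, while Psmd10 was higher in both MI libraries, at 4.35 and 5.01, against 4.33 and 3.96 in Sham. Psmd10 had 6.10 and 7.88 CPM in MI and 7.91 and 6.52 CPM in Sham.

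The core assembly chaperones Psmg1 to Psmg4 build the alpha ring before the regulatory particle docks. All 4 were below 0, with a median of -0.24. For 3 of them the MI values lay wholly below the Sham values in CPM (all genes 21.9%). In FPKM this held for 1, Psmg1 (all genes 8.89%). Psmg1 had 7.53 and 8.75 CPM in MI and 11.4 and 9.26 CPM in Sham (log2 difference -0.35 ± 0.21 SE). Psmg2, its partner in a heterodimer, had 12.4 and 12.7 CPM in MI, against 15.5 and 15.6 CPM in Sham. Psmg3 had 3.82 and 3.82 CPM in MI and 3.92 and 4.39 CPM in Sham, a gap within its SE.

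Psme2, part of an alternative cap of the core, was lower in MI under each scaling run. Psme1 and Psme2 form the interferon-inducible activator ring, Psme3 a nuclear one, Psme4 a single-chain activator, and Psmf1 inhibits the core in vitro. Psme1 (ENSMUSG00000022216, chromosome 14, 55578123 to 55581528) had 45.3 and 51.4 CPM in MI, against 67.3 and 58.1 CPM in Sham. Psme2 (ENSMUSG00000079197, chromosome 14, 55587441 to 55591113) had 16.5 and 17.8 CPM in MI, against 23.7 and 26.7 CPM in Sham. Neither pair of groups overlapped on the CPM or the FPKM scale. The log2 differences were -0.37 ± 0.15 for Psme1 (SE; unadjusted p = 0.051, adjusted p = 0.433) and -0.55 ± 0.15 for Psme2 (unadjusted p = 0.0137, adjusted p = 0.329), the smallest p of any member.

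Psme3 had 49.3 and 52.6 CPM in MI, against 59.5 and 57.4 CPM in Sham (log2 difference -0.20 ± 0.12 SE). Psme4, the most counted member, had 199.998 and 194.6 CPM in MI, against 256.9 and 214.4 CPM in Sham (log2 difference -0.26 ± 0.15 SE). On the CPM scale the groups of both genes were apart. Psmf1 had 16.04 and 15.9 CPM in MI and 15.6 and 16.1 CPM in Sham, a log2 difference of 0.01 ± 0.14 (SE).

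The Psme2 value depends on how reads were divided with Psme2b, a near-identical gene on chromosome 11 (ENSMUSG00000078153, 48945354 to 48946190) whose symbol the member rule does not match. The coding sequences are 717 bases each and differ at 5 positions (99.3% identity), with a longest stretch without a difference of 311 bases, longer than the 150-base reads. The 150 coding bases from 394 to 543, where 3 of the 5 differences lie, are printed for both genes from the GENCODE M21 annotation of GRCm38. Both genes lie on the minus strand, and the coding strand is given. Capitals mark the bases that differ.
Psme2: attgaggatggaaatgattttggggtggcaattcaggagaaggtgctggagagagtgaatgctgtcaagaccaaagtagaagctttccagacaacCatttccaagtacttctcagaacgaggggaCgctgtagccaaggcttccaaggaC
Psme2b: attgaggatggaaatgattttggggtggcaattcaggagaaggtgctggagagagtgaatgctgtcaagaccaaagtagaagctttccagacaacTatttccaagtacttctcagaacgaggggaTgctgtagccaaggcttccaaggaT

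Psme2b had the opposite sign to Psme2. It had 9.94 and 9.04 CPM in MI, against 6.65 and 7.30 CPM in Sham, a log2 difference of 0.44 ± 0.18 (SE; unadjusted p = 0.0632, adjusted p = 0.452). As a share of the Psme2 counts, Psme2b had 60.1% and 50.9% in MI, against 28.1% and 27.4% in Sham. The sum of both genes was 26.5 and 26.8 CPM in MI, against 30.4 and 34 CPM in Sham. The groups stayed apart in the sum, and the log2 difference of the mean log2 values was -0.27, against -0.55 for Psme2 alone. Whether the shift between the genes arose in the hearts or in the assignment of reads was not tested.

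**Figure D4:**
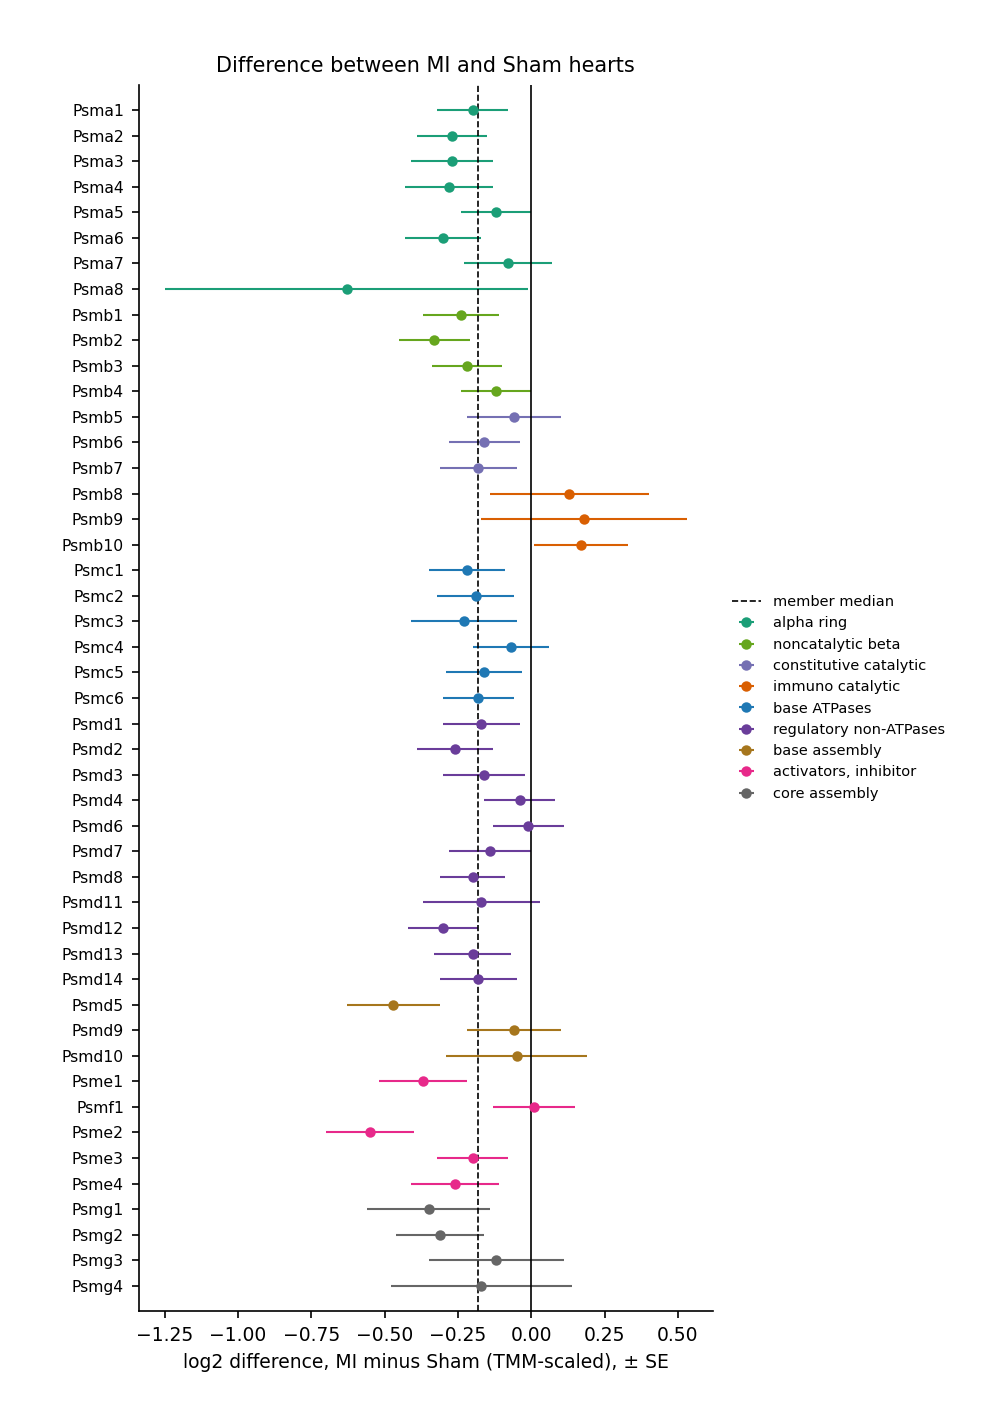
Log2 difference (MI minus Sham, TMM-scaled, horizontal axis) of each of the 47 members (rows, coloured by role); points are edgeR estimates and bars ± 1 SE, with the dashed line at the member median of -0.18. Psmb8, Psmb9, Psmb10 and Psmf1 lie right of 0, and Psme2, Psmd5 and the barely detected Psma8 lie farthest left.

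Subunits that stand in equal numbers in the core differed in transcript level per length. Over the 14 constitutive core genes, mean FPKM over the 4 libraries ranged from 9.18 for Psma3 to 67 for Psma6, a ratio of 7.3. With the counts of its copy Gm13835 added at its own length, Psma3 averaged 13.7 FPKM. The length behind an FPKM affects such comparisons. The length implied by the deposited counts and FPKM was 1.09 to 1.1 times the union of all annotated exons in GENCODE M21, which holds retained introns, and this union was 1 to 3.36 times the principal transcript (median 1.65). Per kilobase of the principal transcript, the same genes ranged from 13.8 CPM per kb for Psma3 to 98.6 CPM per kb for Psmb6, a ratio of 7.14.

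Among the constitutive catalytic subunits, Psmb5 was the highest on one length scale and the lowest on the other. By FPKM they averaged 49.8 for Psmb5, 38.5 for Psmb6 and 29.7 for Psmb7. Per kilobase of the principal transcript they averaged 54.3 CPM per kb for Psmb5, 98.6 for Psmb6 and 95.8 for Psmb7. The order of the immunoproteasome subunits was the same on both scales: Psmb10 at 12 FPKM and 16.9 CPM per kb, Psmb8 at 2.35 FPKM and 5.28 CPM per kb, and Psmb9 at 1.03 FPKM and 3.03 CPM per kb. On the principal transcript scale the ratio of immunoproteasome to constitutive sums was 0.116 and 0.11 in MI, against 0.0738 and 0.11 in Sham, a log2 difference of 0.33. Assembly chaperones, Psmf1, Psmb8 and Psmb9 stood below the structural subunits other than Psma8 on both scales.

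**Figure D5:**
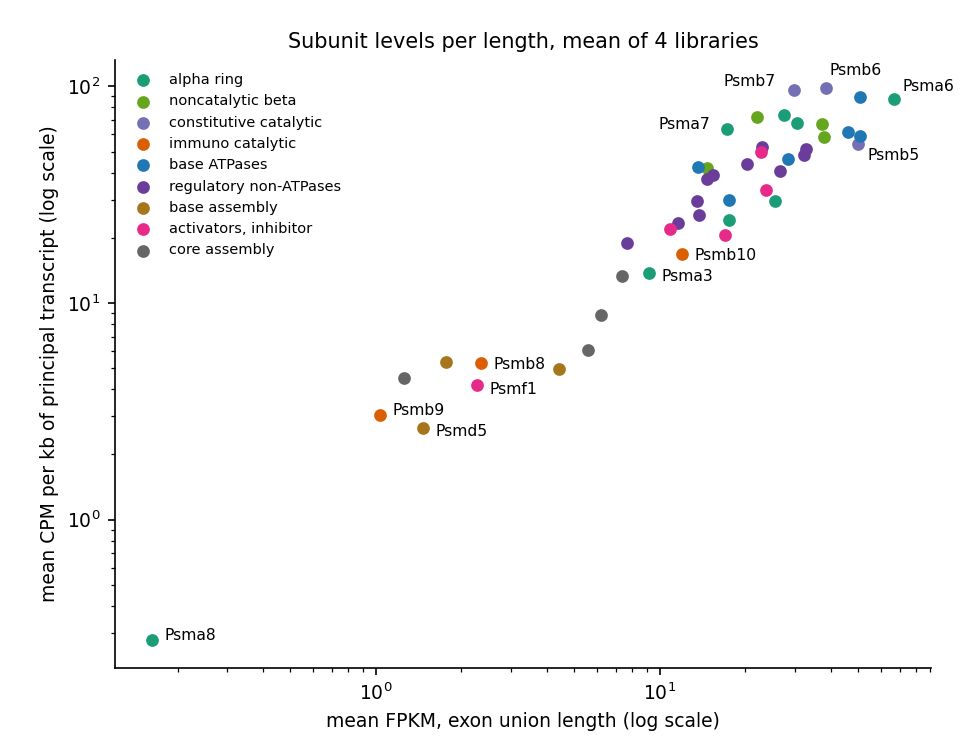
Mean level of each member over the 4 libraries by deposited FPKM (horizontal, log scale) and by CPM per kilobase of the principal transcript (vertical, log scale), coloured by role. Psmb8 and Psmb9 lie near the assembly chaperones and Psmb10 near Psma3, while Psmb6 and Psmb7 lie above Psmb5 on the vertical axis and left of it on the horizontal one.

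The rest of the ubiquitin system showed few differences at this depth of replication. The remaining subunits and assembly factors Pomp, Adrm1 and Sem1 had log2 differences of -0.23, -0.29 and -0.11, so all 3 were below 0 as most members were. Pomp, which matures the core, had 35.3 and 35.2 CPM in MI, against 41.2 and 41.7 CPM in Sham. The 8 proteasome-bound deubiquitinases and shuttle factors had a median of -0.17, with 7 below 0 and 0 at an unadjusted p under 0.05 in either direction. The 5 genes of the Vcp segregase, which pulls ubiquitinated proteins out of complexes, had a median of -0.13. Vcp itself had 284.5 and 319.5 CPM in MI and 329.7 and 318.4 CPM in Sham, groups that overlap.

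The 6 genes for ubiquitin and its activating enzymes had a median of 0.03 and did not share a direction, with 3 above and 3 below 0. Ubb, a polyubiquitin gene, had 516.2 and 581.6 CPM in MI and 573.2 and 542.9 CPM in Sham. Its groups overlapped. The 7 muscle ubiquitin ligases had a median of -0.06, and 0 of them had an unadjusted p under 0.05. Trim63, the sarcomere ligase, had 154.7 and 163.0 CPM in MI, against 150.6 and 116.2 CPM in Sham (log2 difference 0.25 ± 0.17 SE).

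Among 8 genes that govern transcription of the subunits, 0 had an unadjusted p under 0.05, and the median was -0.07. Nfe2l1, the factor that raises subunit transcription when proteasome activity is short, had 79.2 and 94.1 CPM in MI and 362 and 79.4 CPM in Sham. The value in Sham 1 stood far above the other libraries, and Sham 1 was the library with the highest CPM for most members. In FPKM, however, the members' sum was highest in MI 1. Whether the Nfe2l1 value and the members' values in Sham 1 are related was not tested. Nfe2l2, the factor that binds antioxidant response elements under oxidative stress, had 64.4 and 65.9 CPM in MI and 65.8 and 66.6 CPM in Sham, a log2 difference of -0.02 ± 0.11 (SE).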

How the data were processed

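Poly(A) RNA for 2 MI and 2 Sham heart libraries was sequenced as paired-end 150-base reads with dUTP strand marking, per the labels' protocols. The authors deposited, for each gene, an estimated count and an FPKM per library, per the file headers. Tools named in the submitters' processing notes, without role or order, are StringTie 1.3.4d, HISAT2 2.0.4, UMI-tools and cutadapt 1.9. For the genome build and for strand in counting, the setting is not given in the sources used here. In GENCODE M21 (GRCm38), 39 of the 47 members had the same start and end. The deposited FPKM are the authors' values per gene length and library size. Low estimated counts pile up at multiples of 4, so a count may not be 1 independent fragment, and how the counts were derived is not known. In all, 0 columns lacked a labelled sample.

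Groups were taken from the sample titles. The main test was the quasi-likelihood test of edgeR 4.0.16 under R 4.3.3 (2-sided), fitted on group alone after TMM scaling. The filter was filterByExpr at min.count 10 and min.total.count 15, and p-values were adjusted by Benjamini-Hochberg over all 18475 genes. The biological coefficient of variation was 0.368. The alternatives were DESeq2 1.42.0, limma 3.58.1 on log2(FPKM + 1) and log2(FPKM + 0.1), other scalings and filters, counts divided by 4, a replicate block and leaving out each library. A length and a copy check were added after seeing the data: levels per kilobase of the principal GENCODE M21 transcript, and counts summed with near-identical copies found with BLAST 2.17.0. Scripts were tested on simulated data.

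The members and gene lists were chosen with earlier results of these data known. Values per library are given for the catalytic subunits, the activators and inhibitor, members with an unadjusted p under 0.05, and in each role group those with the highest and lowest FPKM and log2 difference. For the other lists, counts are given for the whole list, and the genes named with values were chosen after their values were seen, as were Psma3 and the copies Psme2b and Gm13835. Of the list genes, 1 is not reported here. Promoters are those of RefSeq GRCm38.p6.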

Additional observations from a re-analysis of the deposited data

How the results depend on the processing

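No member was called at an adjusted p under 0.05 under any alternative run, and none was higher in MI at an unadjusted p under 0.05. The count of genes called among all tested, 0 in edgeR, was 635 in DESeq2 and ranged from 0 to 14 with 1 library left out (14 without Sham 1, 5 without Sham 2). The 3 members lower at an unadjusted p became 0 in both limma fits, 0 with total counts only, 0 with mitochondrial genes removed, 5 with RLE factors, 5 with counts divided by 4, 6 with the stricter filter (min.count 40) and 0 to 6 with 1 library left out (6 without Sham 2, 0 without either MI library). The members' median log2 difference, -0.18 with TMM, reversed to 0.03 and 0.04 in limma on log2(FPKM + 1) and log2(FPKM + 0.1) and to 0.04 with total counts only, and moved to -0.04 without mitochondrial genes. These scalings moved the median of all genes as well, to between 0.10 and 0.23. With 1 library left out it ranged from -0.24 to -0.14. The log2 ratio of immunoproteasome to constitutive FPKM, 0.30, ranged from 0.02 to 0.59 with 1 library left out and was 0.33 with CPM, with CPM per kilobase of principal transcript and as the mean of 3 pair ratios.

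Deviations from the group mean correlated at -0.0561 between MI 1 and Sham 1 over all genes tested. With 2 libraries a group, this value cannot tell whether libraries of the same replicate number were paired. With the replicate block 1 member, not 3, was lower at an unadjusted p under 0.05, and the members' median stayed at -0.18. For the 29 named members, 368 of the alternative values kept their side of an unadjusted p of 0.05, 24 lost it and 12 gained it. Only Psmb2, Psmd5 and Psme2 were under 0.05 in the main fit, so all 24 losses were theirs. The 368 kept values therefore say little about these 3 members. A kept side is not a kept sign: the log2 difference of Psma7 was -0.08 with TMM and 0.14 with total counts only. Psma8 was dropped by the stricter filter and by division of counts by 4, which left 46 members. The number of libraries, 2 a group, limits what can be told: differences of the members' usual size were about as large as their SE.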
